A study of Mus musculus with 14 samples.

Results

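The interferon response genes described here are 35 mouse genes that interferons switch on or that carry the interferon signal inside the cell. They were chosen by name, with earlier results of these data known. A member is a gene of that list with a probe set annotated with that single gene symbol, and its brightest probe set by the mean over 14 arrays stands for it. All 35 were found among the 18820 genes measured in this way. The arrays hold RNA of pancreatic islets from Tlr2/Tlr4 double knockout (DKO) and wild type (WT) mice. After 7 months of high-fat diet there were 4 DKO and 4 WT arrays, and after 5 weeks 2 DKO and 4 WT arrays. Toll-like receptors 2 and 4 are surface receptors for microbial lipoproteins and lipopolysaccharide, and the study asked what their loss does to islets in diet-induced obesity. The DKO mice were knockouts of both genes on a C57BL/6 background, and the WT mice were C57BL/6. All mice were housed free of specified pathogens and began a diet with 60% fat at 6 weeks of age. The longer diet always came with an older mouse, and both cannot be told apart. No mice on another diet were analysed here. Each array is labelled with a replicate number and was taken as the islets of a separate mouse. The p-values measure the spread between these arrays.

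Type I interferons bind a receptor made of Ifnar1 and Ifnar2, whose kinases Jak1 and Tyk2 activate transcription factors that include Stat2. A complex that holds Stat2 and Irf9 binds the interferon-stimulated response element (ISRE), while interferon gamma acts through the gamma-activated site (GAS). The targets include sensors of viral RNA, enzymes and membrane proteins that block viruses, chemokines for T cells, and the proteasome subunits and transporters that prepare antigen. Tlr4 can start this programme through the adaptors Ticam2 and Ticam1 and the induction of interferon beta, and in human islets an interferon signature and the sensor gene IFIH1 have been linked to autoimmune diabetes.

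All values below are log2 signals as the authors deposited them, and differences between groups are differences of log2 means, each followed by ± its standard error from limma, a linear model fitted to all genes. A gene passed a comparison when its p, adjusted by the Benjamini-Hochberg method over the 18820 genes, was under 0.05. The knockout showed in Tlr2, at 5.35, 5.29, 5.41 and 5.18 in DKO islets and 6.43, 6.24, 6.26 and 6.53 in WT islets at 7 months, and at 4.77 and 4.82 in DKO islets and 6.47, 6.50, 6.22 and 6.62 in WT islets at 5 weeks. Tlr2 was lower in DKO islets by -1.06 ± 0.10 at 7 months (adjusted p = 1.61e-05) and -1.66 ± 0.12 at 5 weeks (adjusted p = 9.71e-06). Tlr4 was below the array medians in every group, with group means of 3.30 in DKO and 3.00 in WT islets at 7 months and 3.21 in DKO and 2.86 in WT islets at 5 weeks, so it did not check the labels. Insulin 2 (11.76 to 11.99), glucagon (11.91 to 13.01) and somatostatin (11.58 to 12.91) were bright on all 14 arrays. The mean of 7 acinar cell markers, centred per gene, ranged from -2.58 to 0.88 over the WT arrays of 7 months and from 0.04 to 0.64 over the DKO arrays of 7 months. DKO replicate 4 of 7 months stood apart in lymphocyte markers, as described after the comparisons.

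The members covered much of the measured range. Their means over all arrays ran from 2.47 for Oas3 to 8.04 for Ifitm3, which correspond to percentiles 20.2 and 90.2 of all genes, and 24 of the 35 lay above the medians of all 14 arrays (3.89 to 3.98) while 10 lay below all of them. Signal above background was not shown for these 10, which were Oas3, Mx1, Isg15, Ifit2, Cxcl9, Oas1a, Mx2, Cxcl10, Xaf1 and Dhx58. The 3 brightest were Ifitm3, Ifitm2 and Trim25, and the 3 dimmest were Oas3, Isg15 and Mx1. Isg15, a ubiquitin-like protein joined to other proteins, read 2.70, 3.06, 2.68 and 2.51 in DKO islets and 2.37, 2.40, 2.60 and 2.58 in WT islets at 7 months. At 5 weeks Isg15 read 2.85 and 2.74 in DKO islets and 2.70, 2.56, 2.77 and 2.88 in WT islets. Oas3, which makes 2'-5'-linked oligoadenylates in cells with double-stranded RNA, read 2.49, 2.79, 2.23 and 2.68 in DKO islets and 2.17, 2.38, 2.43 and 2.46 in WT islets at 7 months. At 5 weeks Oas3 read 2.45 and 2.70 in DKO islets and 2.40, 2.41, 2.45 and 2.55 in WT islets. Mx1, a dynamin-like antiviral GTPase gene, read 2.47, 3.02, 2.33 and 3.22 in DKO islets and 2.75, 2.42, 2.54 and 2.64 in WT islets at 7 months. At 5 weeks Mx1 read 2.62 and 2.74 in DKO islets and 2.55, 2.40, 3.23 and 2.41 in WT islets. The DKO and WT arrays of these 3 genes overlapped at both times, and none of the 3 passed any comparison. Mx1 and Mx2 are annotated by RefSeq as transcribed pseudogenes in the C57BL/6J genome. Trim25, a ligase that acts on the sensor Ddx58, read 7.83, 7.77, 7.42 and 7.40 in DKO islets and 7.50, 7.68, 7.64 and 7.67 in WT islets at 7 months. At 5 weeks Trim25 read 7.01 and 7.48 in DKO islets and 7.47, 7.44, 7.37 and 7.34 in WT islets, and its genotype groups overlapped at both times. In whole islets, fewer cells of a type and less RNA per cell cannot be told apart.

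**Figure D1:**
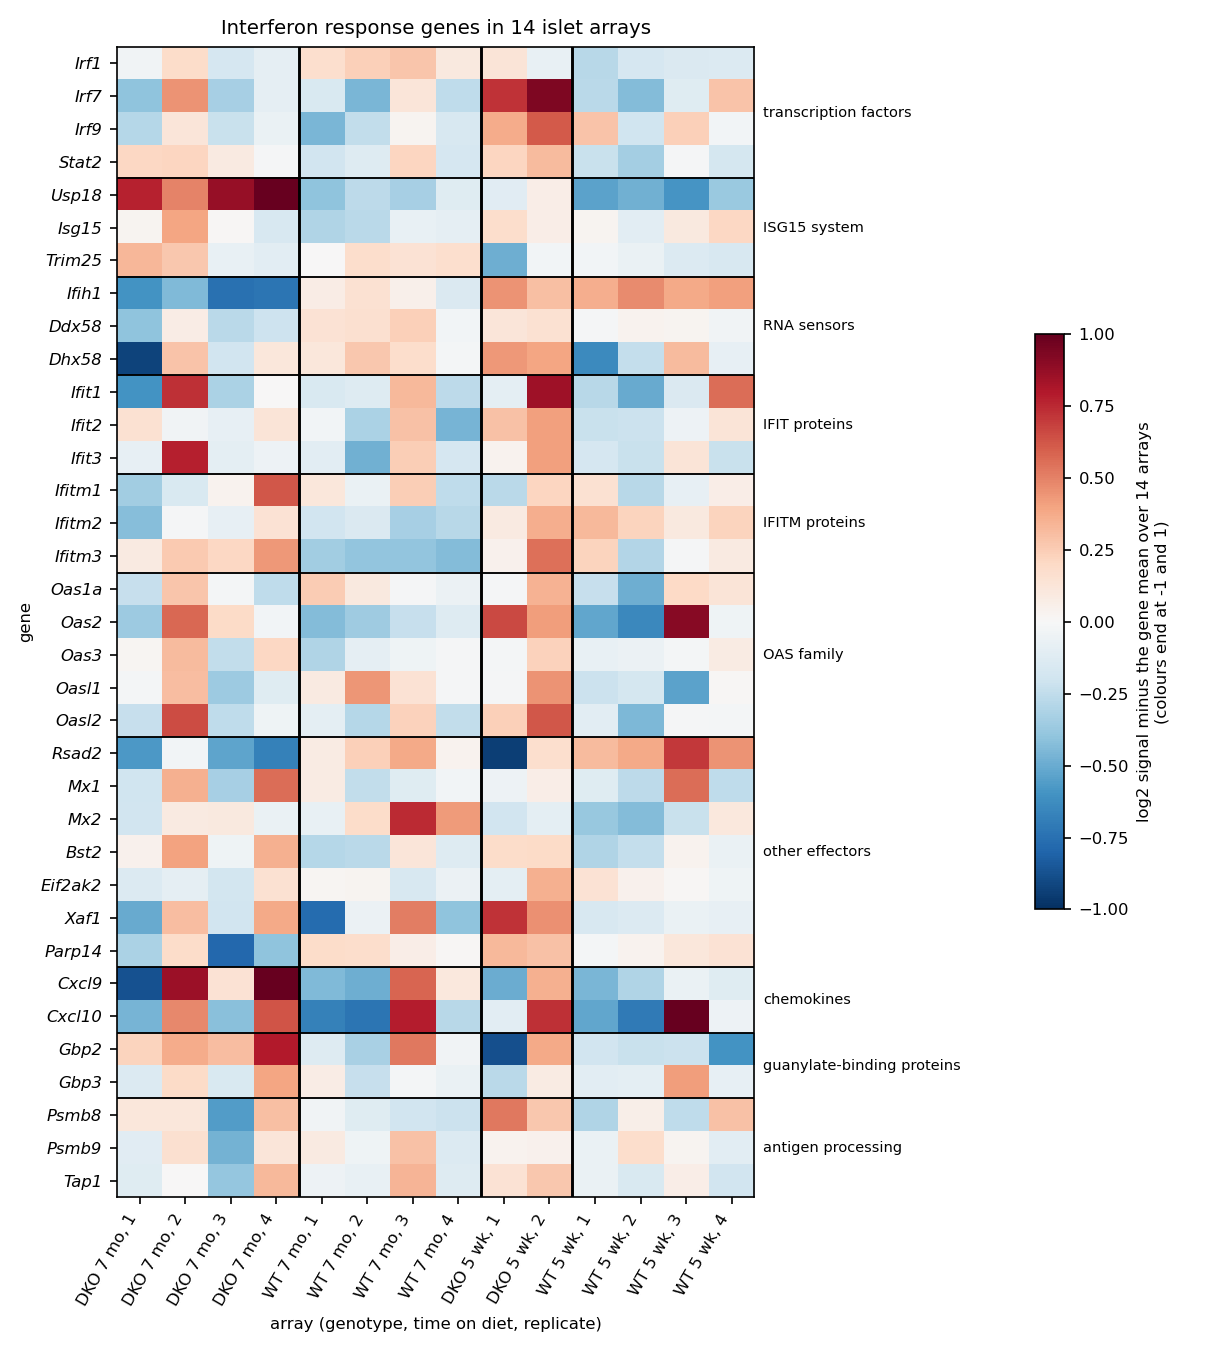
Signal of the 35 members (rows, ordered by role) on the 14 arrays (columns, by group), as log2 signal minus the gene's mean over the 14 arrays; red is above and blue below that mean, and colours end at -1 and 1. Ifih1 is blue and Usp18 red on all 4 DKO arrays of 7 months, while single arrays such as DKO replicate 2 and WT replicate 3 of 7 months are red over many rows.

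The start regions of the members were searched for the DNA elements of the pathway. RefSeq windows of 300 bases (250 before the start site and 50 after it, genome build GRCm38.p6) were matched for 29 members, all but Usp18, Mx1, Mx2, Oas2, Dhx58 and Parp14. The ISRE core was searched as GAAA, any 2 bases and GAAA again, or on the other strand TTTC, any 2 bases and TTTC. It occurred in 16 of the 29 (55.2%), against 1079 of 27025 genes with a window (3.99%). The GAS core TTCNNNGAA, which reads the same on both strands, occurred in 7 of the 29 (24.1%), against 9.55% of the 27025 genes. It also occurred in 26.7% of 30 pathway genes and 24% of 25 further interferon-induced genes with a window, lists described below. For the ISRE core those shares were 10% and 28%. Of the 8 members that passed some comparison below, 6 had a window: Ifih1, Ifitm2 and Ifitm3 held an ISRE core, Irf1 and Ifitm3 a GAS core, and Irf7 and Irf9 neither. Of the 27 that passed none, 23 had a window and 13 of these held an ISRE core. Irf1, Irf9, Ifit2 and Gbp3 each had a further window at another start site, which held neither core. The Irf1 window given below is the one with a core. A match describes letters in the window only. The windows of 3 members that passed, of Isg15, which holds 3 overlapping ISRE cores, and of Rsad2 are given 5' to 3' on the gene's strand, so that the position of the cores can be compared; capitals mark the ISRE core, and in Irf1 the GAS core. Counting the start site as 0 and giving the first base of each core, the ISRE core lies 32 bases after it in Ifih1 and 2 and 19 bases after it in Ifitm3, at -78 to -66 in Isg15 and at -120 in Rsad2, and the GAS core lies at -90 in Irf1. In Ifitm3 a GAS core starting at 13, not capitalised as such, overlaps the ISRE core at 19.
Ifih1, chr2:62646206-62646505, minus strand: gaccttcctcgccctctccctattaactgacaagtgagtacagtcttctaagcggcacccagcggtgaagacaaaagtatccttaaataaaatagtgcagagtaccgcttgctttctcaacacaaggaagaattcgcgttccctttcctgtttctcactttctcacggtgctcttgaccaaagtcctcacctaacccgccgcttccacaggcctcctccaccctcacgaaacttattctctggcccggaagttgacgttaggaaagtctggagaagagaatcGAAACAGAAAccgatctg
Ifitm3, chr7:141010695-141010994, minus strand: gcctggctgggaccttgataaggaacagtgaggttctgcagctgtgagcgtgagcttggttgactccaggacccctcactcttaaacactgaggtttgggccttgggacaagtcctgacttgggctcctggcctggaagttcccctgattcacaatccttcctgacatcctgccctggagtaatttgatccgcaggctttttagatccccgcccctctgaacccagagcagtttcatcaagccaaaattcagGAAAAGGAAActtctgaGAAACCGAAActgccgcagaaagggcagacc
Irf1, chr11:53769764-53770063, plus strand: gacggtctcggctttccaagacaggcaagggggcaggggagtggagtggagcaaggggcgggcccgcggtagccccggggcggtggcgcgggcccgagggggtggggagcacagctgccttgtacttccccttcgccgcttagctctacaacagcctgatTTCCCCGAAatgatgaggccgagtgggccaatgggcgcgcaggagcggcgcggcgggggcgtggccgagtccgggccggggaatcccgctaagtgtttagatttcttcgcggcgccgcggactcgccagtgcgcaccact
Isg15, chr4:156200769-156201068, minus strand: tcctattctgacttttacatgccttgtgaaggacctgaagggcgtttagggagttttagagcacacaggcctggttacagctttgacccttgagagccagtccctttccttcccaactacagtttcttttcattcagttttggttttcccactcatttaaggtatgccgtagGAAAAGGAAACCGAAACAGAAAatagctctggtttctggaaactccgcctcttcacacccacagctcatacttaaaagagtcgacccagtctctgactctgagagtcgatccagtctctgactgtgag
Rsad2, chr12:26456403-26456702, minus strand: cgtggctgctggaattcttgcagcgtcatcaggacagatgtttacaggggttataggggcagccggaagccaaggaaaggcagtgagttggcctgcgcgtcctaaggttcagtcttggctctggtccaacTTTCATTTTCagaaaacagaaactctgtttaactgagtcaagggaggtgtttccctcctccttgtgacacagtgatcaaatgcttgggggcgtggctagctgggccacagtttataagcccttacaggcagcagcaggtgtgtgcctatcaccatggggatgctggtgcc

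At 7 months, 3 members differed between DKO and WT islets: Usp18 and Ifitm3 were higher and Ifih1 lower in DKO islets, 3 of 35, where 4.71% of all genes passed. Usp18, the protease that removes Isg15 from proteins and restrains the type I receptor, read 7.89, 7.61, 7.99 and 8.12 in DKO islets and 6.71, 6.85, 6.78 and 6.99 in WT islets. All 4 DKO arrays lay above all 4 WT arrays, and the difference of 1.07 ± 0.11 (2.09-fold, adjusted p = 3.80e-05) was the highest of any member. Ifitm3, a membrane protein that hinders viral entry, read 8.12, 8.30, 8.24 and 8.47 in DKO islets and 7.69, 7.64, 7.64 and 7.60 in WT islets. The groups did not overlap, and Ifitm3 was higher in DKO islets by 0.64 ± 0.12 (1.56-fold, adjusted p = 0.00788). Ifih1 encodes MDA5, a cytoplasmic sensor of long double-stranded RNA, and read 5.80, 5.95, 5.66 and 5.67 in DKO islets and 6.47, 6.55, 6.45 and 6.25 in WT islets. Every DKO array lay below every WT array, with a difference of -0.66 ± 0.09 (1.58-fold lower, adjusted p = 0.000572). Markers of other cells moved with genotype at 7 months. The mean of 8 macrophage markers, centred per gene, was 0.14 to 0.85 in DKO islets and -0.14 to -0.03 in WT islets. The mean of 6 stellate cell or pericyte markers was 0.30 to 0.90 in DKO islets and -0.61 to -0.32 in WT islets, and that of 3 alpha cell markers -1.02 to -0.80 in DKO islets and -0.11 to 0.09 in WT islets. The mean of 3 delta cell markers was -1.07 to -0.79 in DKO islets and -0.05 to 0.18 in WT islets, and that of 6 endothelial cell markers 0.16 to 0.37 in DKO islets and 0.00 to 0.14 in WT islets. Their part in these differences was not tested.

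**Figure D2:**
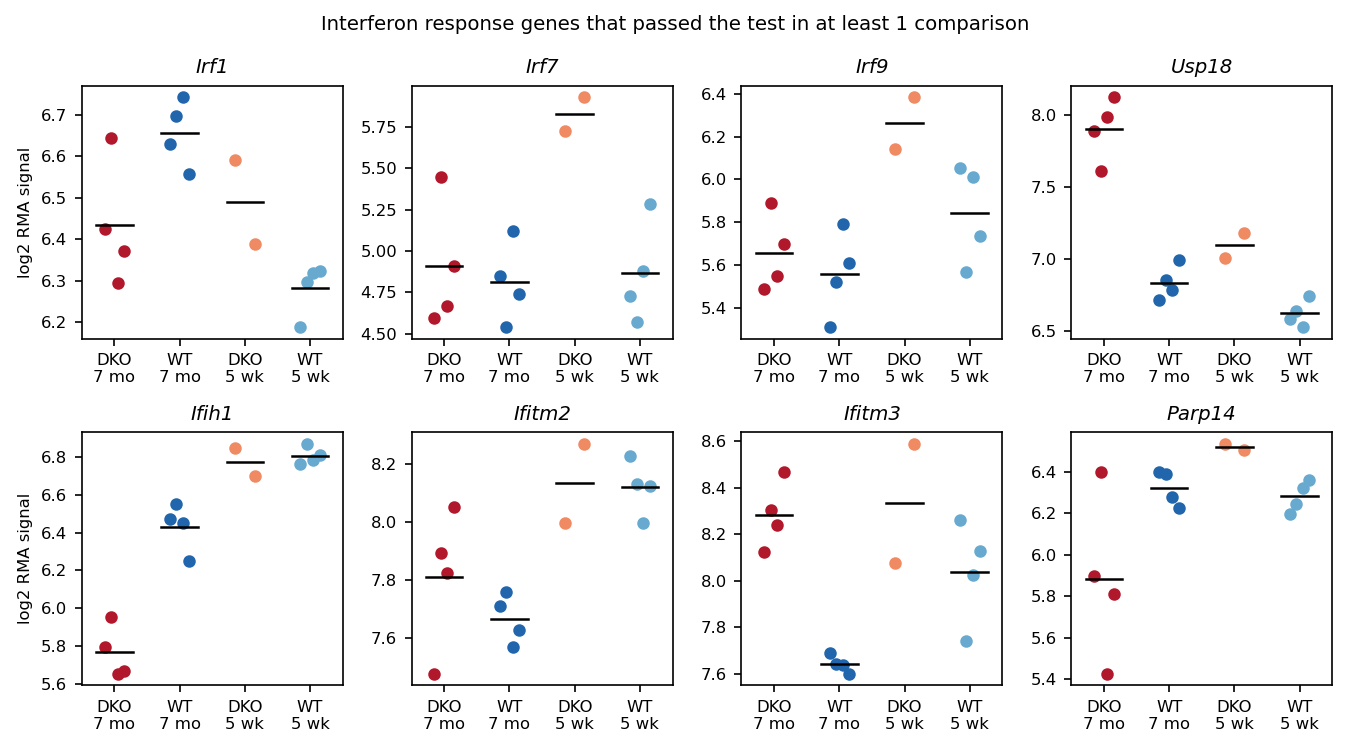
Log2 signal (y axis) of the 8 members that passed at least 1 comparison, 1 panel each, by group on the x axis; points are single arrays and horizontal bars are group means. Usp18 separates DKO from WT islets at 7 months, and Ifih1 is lowest in the DKO arrays of 7 months.

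The other sensors of viral RNA stood on the same side as Ifih1 at 7 months, but did not pass. Ddx58, which encodes RIG-I, read 6.11, 6.59, 6.24 and 6.30 in DKO islets and 6.66, 6.67, 6.75 and 6.49 in WT islets. Only DKO replicate 2 overlapped with the WT arrays, and the difference was -0.33 ± 0.10 (adjusted p = 0.0648). Dhx58, the third sensor of this family, differed by -0.32 ± 0.23. It read 2.93, 4.14, 3.66 and 3.97 in DKO islets and 3.96, 4.12, 4.03 and 3.83 in WT islets. DKO replicate 1 was thus far the lowest, and the groups overlapped. The mean of Dhx58 over all arrays, 3.85, lay below all array medians. Rsad2, the antiviral enzyme viperin, read 5.53, 6.08, 5.57 and 5.43 in DKO islets and 6.18, 6.34, 6.48 and 6.14 in WT islets. No DKO array reached a WT array, and the difference was -0.63 ± 0.20 (adjusted p = 0.0851). Parp14, an ADP-ribosyltransferase, read 5.90, 6.40, 5.43 and 5.81 in DKO islets and 6.40, 6.39, 6.28 and 6.22 in WT islets, a difference of -0.44 ± 0.15 (adjusted p = 0.108) in which DKO replicate 2 lay at the top of the WT arrays. Without DKO replicate 2 of 7 months, 7 members passed. Ddx58 (-0.43, adjusted p = 0.00621), Rsad2 (-0.78, adjusted p = 0.0250), Parp14 and Irf1 joined the first 3. Without either 5-week DKO array 4 passed, with Rsad2 as the fourth. Counts without any other array were 3.

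The rest of the members at 7 months gave no difference that passed. Among the transcription factors, Irf1 read 6.43, 6.64, 6.29 and 6.37 in DKO islets and 6.63, 6.70, 6.74 and 6.56 in WT islets, a difference of -0.22 ± 0.09, whereas Irf7, Irf9 and Stat2 differed by 0.09 to 0.19. The IFIT proteins Ifit1, Ifit2 and Ifit3, which bind viral RNA, differed by 0.01 to 0.27, and the 5 OAS family genes by -0.21 (Oasl1) to 0.38 (Oas2). Mx2 read 3.16, 3.44, 3.45 and 3.28 in DKO islets and 3.27, 3.53, 4.09 and 3.77 in WT islets, a difference of -0.34 ± 0.16. Bst2, which tethers virions to the cell, differed by 0.33 ± 0.12 and Isg15 by 0.25 ± 0.11, both with DKO arrays overlapping WT arrays. The chemokines Cxcl9 and Cxcl10 differed by 0.39 ± 0.36 and 0.28 ± 0.43, and the guanylate-binding proteins Gbp2 and Gbp3 by 0.41 and 0.13. The antigen processing genes Psmb8, Psmb9 and Tap1 differed by -0.13 to 0.13. Over the 35, 22 were higher and 13 lower in DKO islets, with a median of 0.13 beside 0.01 for all genes. Without DKO replicate 2 of 7 months 19 were higher, with a median of 0.05. Leaving out DKO replicate 4 also gave a median of 0.05, and leaving out WT replicate 2 or 4 gave 0.08. DKO and WT arrays did not overlap for 4 members (Usp18, Ifitm3, Ifih1 and Rsad2), against 10.6% of all genes.

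At 5 weeks no member passed between DKO and WT islets in limma, where 0.994% of all genes did. An unadjusted p under 0.05 was seen for 11 members (31.4%, beside 12.1% of all genes): Irf7, Usp18, Stat2, Irf9, Ifit2, Oasl2, Xaf1, Oasl1, Psmb8 and Bst2 higher and Rsad2 lower in DKO islets. Of these, Ifit2 and Xaf1 had means over all arrays below all array medians. Of the 35, 31 had a higher mean in DKO islets (88.6%, beside 51.8% of all genes), with a median of 0.26 beside 0.01 for all genes. Single DKO arrays moved this count: without DKO replicate 2 of 5 weeks 24 were higher and 11 lower, with a median of 0.12, whereas leaving out replicate 1 gave 33 higher and 2 lower, with a median of 0.36. The 11 with an unadjusted p under 0.05 were 7 without replicate 2. The 2 DKO arrays did not overlap with the 4 WT arrays for 14 members, 13 of them higher in DKO islets, against 21.6% of all genes in either direction and 11.2% higher. Irf7, the amplifier of type I interferon transcription, read 5.72 and 5.93 in DKO islets and 4.73, 4.57, 4.88 and 5.29 in WT islets. Both DKO arrays lay above all WT arrays, with a difference of 0.96 ± 0.23 (adjusted p = 0.0681). Usp18 read 7.00 and 7.18 in DKO islets and 6.58, 6.64, 6.53 and 6.74 in WT islets, and differed by 0.47 ± 0.13 (adjusted p = 0.120). Stat2, a subunit of the type I complex, read 6.42 and 6.51 in DKO islets and 5.97, 5.86, 6.18 and 6.03 in WT islets, without overlap, and differed by 0.45 ± 0.13 (adjusted p = 0.122).

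Irf9, the DNA-binding part of the same complex, read 6.14 and 6.38 in DKO islets and 6.05, 5.57, 6.01 and 5.74 in WT islets at 5 weeks, a difference of 0.42 ± 0.16 (adjusted p = 0.296). Rsad2 went the other way, with 5.16 and 6.27 in DKO islets and 6.42, 6.48, 6.81 and 6.55 in WT islets, a difference of -0.85 ± 0.24 (adjusted p = 0.127). DKO replicate 1 lay far below replicate 2. The Rsad2 difference was -0.30 without DKO replicate 1 and -1.41 without DKO replicate 2, with an adjusted p of 0.0113 without replicate 2. Irf7 passed without WT replicate 4 (1.10, adjusted p = 0.0337) and without DKO replicate 2 of 7 months, which enters only through the shared spread (adjusted p = 0.0233). The count of members passing was 1 in these cases and without DKO replicate 2 of 5 weeks. Ifih1 and Ddx58 differed by -0.03 ± 0.11 and 0.13 ± 0.12 at this time, Ifitm3 by 0.29 ± 0.15 and Ifitm2 by 0.01 ± 0.14. The OAS family differed by 0.12 (Oas3) to 0.61 (Oas2), the IFIT proteins by 0.34 to 0.46 and the antigen processing genes by 0.03 to 0.45. Ifit1 read 4.88 and 5.82 in DKO islets with a WT mean of 4.89, and Oas3 2.45 and 2.70 with a WT mean of 2.45. The differences of Ifit1 and Oas3 thus rested mostly on DKO replicate 2. Xaf1, a partner of the apoptosis inhibitor Xiap, differed by 0.70 ± 0.28. The members below 0 besides Rsad2 and Ifih1 were Trim25 (-0.16) and Gbp3 (-0.13). DKO replicate 2 of 5 weeks was above replicate 1 in 27 of 35 members (77.1%, beside 51.6% of all genes). The mean of 7 acinar cell markers was 1.03 and 1.55 in DKO islets and -1.69 to 0.57 in WT islets at 5 weeks. The mean of 3 delta cell markers was 0.38 and 0.51 in DKO islets and 0.57 to 0.82 in WT islets, and that of 3 plasmacytoid dendritic cell markers -0.19 and -0.10 in DKO islets and -0.08 to 0.20 in WT islets. Their part in the members' differences was not tested.

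**Figure D3:**
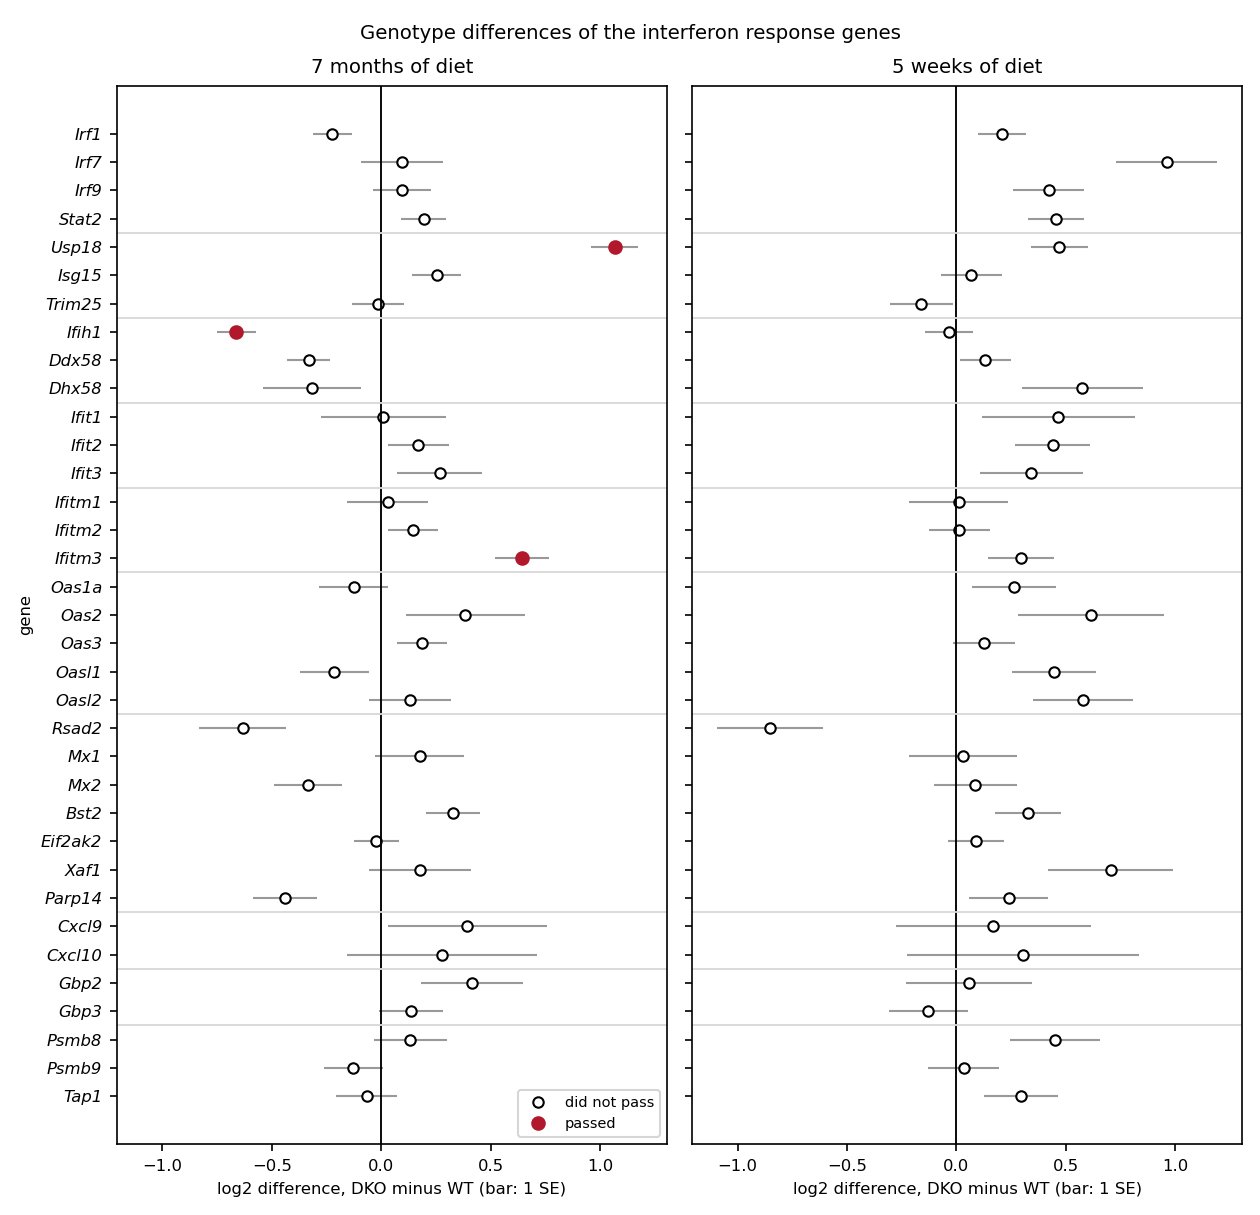
Difference in log2 mean, DKO minus WT, of each member (rows, by role) at 7 months and at 5 weeks; points are differences, bars 1 standard error on either side, and filled points passed. At 7 months Usp18, Ifitm3 and Ifih1 are filled; at 5 weeks none is, and 31 of 35 points lie right of 0, which were 24 without DKO replicate 2 of 5 weeks.

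Within DKO islets, 5 members differed between 7 months and 5 weeks, where 7.57% of all genes passed: Usp18 was higher at 7 months, and Ifih1, Irf7, Irf9 and Parp14 were lower. These comparisons share the DKO arrays of 7 months with the genotype comparison above, so their values are given side by side and not as separate evidence. Ifih1 read 5.80, 5.95, 5.66 and 5.67 at 7 months and 6.85 and 6.70 at 5 weeks in DKO islets, and fell by 1.00 ± 0.11 (2.00-fold lower, adjusted p = 0.000102). Usp18 rose by 0.81 ± 0.13 (1.75-fold, adjusted p = 0.00179), with every array of 7 months above both of 5 weeks. Irf7 read 4.60, 5.45, 4.67 and 4.91 at 7 months and 5.72 and 5.93 at 5 weeks in DKO islets, and fell by 0.92 ± 0.23 (1.89-fold lower, adjusted p = 0.0255). Irf9 read 5.49, 5.89, 5.55 and 5.70 at 7 months and 6.14 and 6.38 at 5 weeks, and fell by 0.61 ± 0.16 (1.52-fold lower, adjusted p = 0.0346). Parp14 read 5.90, 6.40, 5.43 and 5.81 at 7 months and 6.53 and 6.50 at 5 weeks, and fell by 0.64 ± 0.18 (1.55-fold lower, adjusted p = 0.0439). None of these 5 genes overlapped between the DKO groups. The calls of Usp18 and Ifih1 held without any array in turn. The count of 5 was 2 (Usp18 and Ifih1) without DKO replicate 1 or 3 of 7 months or without DKO replicate 1 of 5 weeks. It was 3 without DKO replicate 4 of 7 months (with Irf7) and 4 without DKO replicate 2 of 5 weeks (with Gbp2 and Trim25). It was 7 without DKO replicate 2 of 7 months, when Ddx58 and Oasl2 joined, and 4 without any single WT array, when Parp14 was lost. Of the 35, 26 were lower and 9 higher at 7 months, with a median of -0.19 beside 0.02 for all genes. Without DKO replicate 2 of 5 weeks 19 were lower and 16 higher, with a median of -0.04, whereas leaving out replicate 1 gave 29 lower and 6 higher, with a median of -0.32. The median was -0.13 without DKO replicate 3 of 7 months. Of the 35, 10 did not overlap between the DKO groups (9 lower and 1 higher), against 26.7% of all genes in either direction and 11.1% lower. Several marker lists separated the DKO groups fully. The mean of 3 alpha cell markers was -1.02 to -0.80 at 7 months and 0.29 and 0.62 at 5 weeks, and that of 3 delta cell markers -1.07 to -0.79 at 7 months and 0.38 and 0.51 at 5 weeks. The mean of 7 acinar cell markers was 0.04 to 0.64 at 7 months and 1.03 and 1.55 at 5 weeks in DKO islets. The mean of 4 duct cell markers was -0.30 to -0.02 at 7 months and 0.11 and 0.22 at 5 weeks. The mean of 8 macrophage markers was 0.14 to 0.85 at 7 months and -0.27 and -0.14 at 5 weeks, and that of 6 stellate cell or pericyte markers 0.30 to 0.90 at 7 months and -0.18 and 0.08 at 5 weeks. The mean of 6 endothelial cell markers was 0.16 to 0.37 at 7 months and -0.37 and -0.12 at 5 weeks. The part of these cells was not tested. The 4 transcription factors, the 3 RNA sensors, the 3 IFIT proteins and the 5 OAS genes had lower means at 7 months with all arrays in the fit, as had 46.3% of all genes. Without DKO replicate 2 of 5 weeks Ifit1 (0.05), Ifit3 (0.10) and Oas3 (0.09) lay above 0, as did Irf1 without replicate 1 (0.04) and Oas3 without DKO replicate 3 of 7 months (0.07). With each array centred on its median Oas3 (0.02) also lay above 0, and so did Irf1 with the mean of its probe sets (0.07). Gbp2 (0.67 ± 0.29) and Trim25 (0.36 ± 0.14) had higher means at 7 months and did not pass.

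Within WT islets, 3 members differed between 7 months and 5 weeks, where 2.37% of all genes passed: Irf1 was higher, and Ifih1 and Ifitm2 were lower, at 7 months. Irf1, a transcription factor induced by interferon gamma, read 6.63, 6.70, 6.74 and 6.56 at 7 months and 6.19, 6.30, 6.32 and 6.32 at 5 weeks in WT islets. The groups did not overlap, and Irf1 rose by 0.37 ± 0.09 (1.30-fold, adjusted p = 0.0385). Ifih1 read 6.47, 6.55, 6.45 and 6.25 at 7 months and 6.76, 6.87, 6.78 and 6.81 at 5 weeks, and fell by 0.37 ± 0.09 (1.30-fold lower, adjusted p = 0.0409). Ifitm2, a relative of Ifitm3, read 7.71, 7.76, 7.57 and 7.63 at 7 months and 8.23, 8.13, 8.00 and 8.13 at 5 weeks, and fell by 0.46 ± 0.11 (1.37-fold lower, adjusted p = 0.0485). Its other 2 probe sets were also lower at 7 months, by -0.59 and -0.33. Ifitm3 was also lower at 7 months on all WT arrays, by -0.40 ± 0.12, but did not pass (adjusted p = 0.128); it read 8.26, 7.74, 8.03 and 8.13 in WT islets at 5 weeks. Mx2 read 3.27, 3.53, 4.09 and 3.77 at 7 months and 2.97, 2.91, 3.12 and 3.45 at 5 weeks, a difference of 0.55 ± 0.16 (adjusted p = 0.0883). The 3 calls sat close to the threshold. The count was 0 without any single WT array of 5 weeks and without WT replicate 3 or 4 of 7 months. It was 1 without WT replicate 1 (Mx2) or 2 (Ifih1) or DKO replicate 1 (Ifitm2) of 7 months, and 2 (Irf1 and Ifih1) without DKO replicate 2 or 3 of 7 months. Of the 35, 18 were higher and 17 lower at 7 months, with a median of 0.00 beside 0.03 for all genes; leaving out single WT arrays gave 12 to 23 higher. Of the 35, 5 did not overlap (Irf1 and Trim25 higher, Ifih1, Ifitm2 and Ifitm3 lower), against 11.6% of all genes. The mean of 3 alpha cell markers was -0.11 to 0.09 at 7 months and 0.61 to 0.82 at 5 weeks in WT islets, and that of 3 delta cell markers -0.05 to 0.18 at 7 months and 0.57 to 0.82 at 5 weeks. The mean of 6 stellate cell or pericyte markers was -0.61 to -0.32 at 7 months and -0.14 to 0.18 at 5 weeks, and that of 6 endothelial cell markers 0.00 to 0.14 at 7 months and -0.28 to -0.05 at 5 weeks. Their part was not tested.

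Whether the genotype difference changed between the times was tested as an interaction, the difference of DKO minus WT at 7 months less that at 5 weeks. No member passed in limma, where 0.0903% of all genes did; 8 members had an unadjusted p under 0.05, Usp18 above 0 and Ifih1, Irf1, Ddx58, Parp14, Irf7, Oasl1 and Dhx58 below 0, beside 10.1% of all genes. The interaction of Ifih1 was -0.63 ± 0.14 (adjusted p = 0.125) and that of Usp18 was 0.60 ± 0.17 (adjusted p = 0.207). Those of Irf1, Ddx58 and Parp14 were -0.43 ± 0.14, -0.46 ± 0.15 and -0.68 ± 0.23 (adjusted p = 0.279, 0.285 and 0.313). The median over the members was -0.23, beside 0.00 for all genes, with 22 below 0 and 13 above. Without DKO replicate 2 of 5 weeks 18 lay below 0 and 17 above, and leaving out replicate 1 gave 30 below and 5 above. The median ran from -0.33 to -0.14 over the arrays left out. Without DKO replicate 2 of 7 months 3 members passed: Ifih1 (-0.69, adjusted p = 0.0276), Parp14 (-0.85, adjusted p = 0.0265) and Usp18 (0.69, adjusted p = 0.0394). The genotype differences at the 2 times are given side by side above and are not called different.

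Single arrays moved many members together within a group. DKO replicate 2 of 7 months was the highest of its 4 arrays for 19 members (54.3%, beside 29.5% of all genes), among them Irf7, Irf9, Stat2, Isg15, Ifit1, Ifit3, Ifih1, Ddx58, Dhx58, Rsad2 and all 5 OAS genes. WT replicate 3 of 7 months was the highest for 20 members (57.1%, beside 23.8%), and WT replicate 3 of 5 weeks for 14 (40.0%, beside 30.6%). DKO replicate 4 of 7 months was the highest for 13 members (37.1%, beside 25.1%), among them Cxcl9, Cxcl10, Gbp2, Gbp3, Tap1, Psmb8, Usp18 and the 3 IFITM genes. Averaged over the 35 members and centred per gene, the arrays read -0.19, 0.26, -0.16 and 0.14 in DKO islets and -0.12, -0.12, 0.15 and -0.11 in WT islets at 7 months, and 0.05 and 0.32 in DKO islets and -0.13, -0.19, 0.08 and 0.01 in WT islets at 5 weeks. The genotype groups overlapped at both times. Marker lists of immune cells moved with some of these arrays. On DKO replicate 4 of 7 months the mean of 6 T or NK cell markers was 1.52, where the other 13 arrays lay between -0.46 and 0.13. The mean of 3 B or plasma cell markers was 1.83 there, and -0.34 to 0.04 on the others. On DKO replicate 2 of 7 months these means were -0.05 and 0.04. Beta cell markers (7 genes) averaged 0.14 on that array and -0.18, -0.23 and -0.18 on DKO replicates 1, 3 and 4 of 7 months. Acinar cell markers (7 genes) averaged 0.64 on it and 0.26, 0.04 and 0.20 on the same replicates. Their part in the members' values was not tested. Cd3e, a subunit of the T cell receptor complex, read 2.80, 3.43, 2.98 and 5.44 in the DKO arrays of 7 months. Without DKO replicate 4 the 3 differences between DKO and WT islets at 7 months were 0.99 for Usp18 (adjusted p = 0.000120), 0.58 for Ifitm3 (adjusted p = 0.0256) and -0.63 for Ifih1 (adjusted p = 0.00238). The part of lymphocytes in the values of the members, these 3 included, was not tested. Markers of plasmacytoid dendritic cells, the blood cells that make most type I interferon, were dim, and the mean of 3 ran from -0.15 to 0.24 in DKO islets and -0.09 to 0.14 in WT islets at 7 months.

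**Figure D4:**
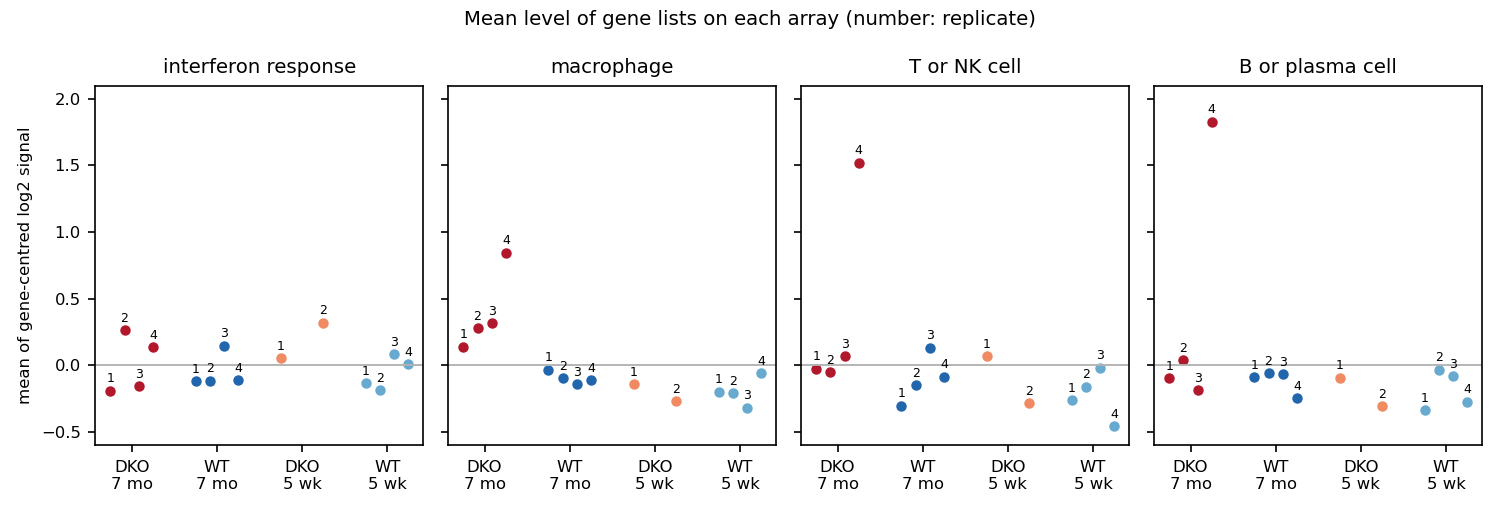
Mean over genes of log2 signal centred on each gene's mean over the 14 arrays (y axis), for the 35 members and for marker lists of immune cells (panels), by group; each point is an array and numbers are replicates. DKO replicate 4 of 7 months is at 1.52 for T or NK cell markers, and DKO replicate 2 of 7 months and DKO replicate 2 of 5 weeks are the highest for the members, at 0.26 and 0.32.

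Of the signalling genes of the pathway, 35 of 37 listed genes were measured, among them the interferons, receptors, kinases, Toll-like receptor adaptors and RNA and DNA sensing routes. The interferon genes themselves were dim, with Ifnb1 at 2.12 to 2.45 and Ifng at 2.02 to 3.06 over the 14 arrays, whereas the receptor chains Ifnar1 (6.98 to 7.60) and Ifnar2 (7.17 to 7.79) were bright. None of the 35 passed between DKO and WT islets at 7 months or at 5 weeks in limma, and 4 had an unadjusted p under 0.05 at each time (11.4% of the 35, beside 18.4% of all genes at 7 months and 12.1% at 5 weeks). At 7 months the smallest p belonged to Ifngr2 (0.32 ± 0.10, adjusted p = 0.0937), followed by Irf2 (-0.26 ± 0.11) and Ifnar2 (0.21 ± 0.09). At 5 weeks it belonged to Ifngr1 (-0.31 ± 0.11), Stat3 (0.38 ± 0.16) and Tlr3 (-0.27 ± 0.12). Stat3 read 9.18 and 8.42 in the DKO arrays of 5 weeks: its difference was 0.00 without replicate 1 and 0.76 without replicate 2 (adjusted p = 0.0284). Without replicates 1 and 2 in turn, that of Tlr3 was -0.14 and -0.40 and that of Ifngr1 -0.20 and -0.41. Within DKO islets 2 were higher at 7 months than at 5 weeks: Ptpn6, the phosphatase SHP-1 (0.40 ± 0.11, adjusted p = 0.0404), and Ifnar2 (0.39 ± 0.11, adjusted p = 0.0457). These 2 of 35 (5.71%) stand beside 7.57% of all genes that passed there. Ptpn6 passed under 10 and Ifnar2 under 8 of 23 alternative settings. Both were lost in limma with a position number as a block (adjusted p = 0.0511 and 0.0569). That number was 5 for odd and 7 for even replicates in every group. Ptpn6 was lost without WT replicate 1 or 2 or DKO replicate 1 or 2 of 5 weeks and without WT replicate 1 or 4 or DKO replicate 3 or 4 of 7 months. Ifnar2 was lost without any WT array or DKO replicate 1 of 5 weeks and without WT replicate 2 or 4 or DKO replicate 1, 3 or 4 of 7 months. Within WT islets none passed and 1 had an unadjusted p under 0.05, beside 14.6% of all genes. The smallest p belonged to Jak2 (0.24 ± 0.11), Ptpn6 (0.19 ± 0.09) and Irf8 (0.34 ± 0.21). No interaction passed in limma, and 2 had an unadjusted p under 0.05 (5.71%, beside 10.1% of all genes).

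Of 42 further genes that interferons induce, 34 were measured, and 6 passed between DKO and WT islets at 7 months (17.6%, beside 4.71% of all genes). The list was drawn up with earlier results of these data known, so this share is descriptive only. Isg20, an RNA exonuclease (0.48 ± 0.09, adjusted p = 0.00497), Trim30a, a mouse TRIM protein (0.65 ± 0.13, adjusted p = 0.00887), Ifi27 (0.49 ± 0.11, adjusted p = 0.0189) and Sp100, a nuclear body protein (0.58 ± 0.14, adjusted p = 0.0313), were higher in DKO islets. Cd274, the checkpoint ligand PD-L1 (-0.66 ± 0.16, adjusted p = 0.0321), and Cmpk2, a mitochondrial nucleotide kinase (-0.57 ± 0.14, adjusted p = 0.0323), were lower. Isg20 and Trim30a passed without any array in turn; Ifi27 was lost without DKO replicate 4 or WT replicate 2 of 7 months, and Sp100 without any WT array of 7 months. Cd274 was lost without WT replicate 1, 2 or 3 or DKO replicate 1, 3 or 4 of 7 months, and Cmpk2 without any WT array or DKO replicate 1 or 3 of 7 months. At 5 weeks Cmpk2 alone of the 34 passed (-0.90 ± 0.17, adjusted p = 0.0198), where 0.994% of all genes did, and was lost without DKO replicate 1 or WT replicate 3 of 5 weeks. Cmpk2 is the neighbour of Rsad2 on the chromosome, and both were lower in DKO islets at both times, though Rsad2 did not pass. Within DKO islets Trim30a rose by 0.79 ± 0.16 (adjusted p = 0.00662) and Psme1, a proteasome activator, fell by 0.66 ± 0.16 (adjusted p = 0.0201) at 7 months against 5 weeks, 2 of 34 (5.88%), beside 7.57% of all genes. Both calls were lost without DKO replicate 1 of 5 weeks, and Psme1 also without DKO replicate 2 of 5 weeks or 3 of 7 months. Within WT islets none of the 34 passed in limma and 4 had an unadjusted p under 0.05 (11.8%, beside 14.6% of all genes). No interaction passed in limma and 1 had an unadjusted p under 0.05 (2.94%, beside 10.1% of all genes).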

How the data were processed

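RNA of islets was hybridised to Affymetrix whole-transcript arrays. Per the submitters' processing notes, the authors used RMA (background correction, quantile normalization and probe set summary); no source used here gives its version. The deposited table holds log2 signals of 35556 probe sets on 14 arrays, with array medians of 3.89 to 3.98. Depth does not apply; the number of arrays limits the precision. Platform annotation gave 21218 probe sets a single symbol, 1881 several and 12457 none; symbols were updated through Entrez IDs for 18790 of 18820 genes. The brightest probe set stood for a gene.

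Differences were fitted with limma 3.58.1 in R 4.3.3 (lmFit and eBayes, 1 mean per group, all 14 arrays, no block), with 5 comparisons and Benjamini-Hochberg adjustment over 18820 genes in each, at a threshold of 0.05; the fit was tested on simulated data. Alternatives were other priors, filters, scalings, blocks and each array left out. All 35 members are named. Array values are given for those that passed, for the 5 of smallest p in each comparison and for the 3 brightest and 3 dimmest. In the other lists, genes that passed are named. The 3 of smallest p are named only in the pathway list, for DKO against WT islets at both times and within WT islets. The members and lists were chosen with earlier results of these data known. Array probes can share signal among close relatives (Ifit, Ifitm, Oas, Oasl and Gbp genes). Sequences are from RefSeq.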

Additional observations from a re-analysis of the deposited data

Results flagged for a closer look

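In groups of 4 arrays, a member's highest or lowest array was compared with the other 3 (Dixon's ratio above its 95% critical value). Of 105 such groups 6 stood apart, and chance alone gives about 1 in 20. Stat2 read 6.42 on WT replicate 3 of 7 months, where the other 3 arrays read 6.01 to 6.07. Tap1, the peptide transporter, read 5.50 on the same array, against 5.03 to 5.11 on the others. Ifit3 read 5.57 on DKO replicate 2 of 7 months, against 4.69 to 4.74, and 4.91 on WT replicate 3 of 5 weeks, against 4.56 to 4.62. Gbp3 read 5.01 on that WT array of 5 weeks, against 4.49 to 4.51. Gbp2 read 3.85 on WT replicate 4 of 5 weeks, against 4.22 to 4.26, and was the lowest there.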

How the results depend on the processing

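Under 23 alternative settings, Usp18 (0.99 to 1.16), Ifitm3 (0.58 to 0.70) and Ifih1 (-0.72 to -0.61) passed between DKO and WT islets at 7 months in all of them, as did Usp18 and Ifih1 within DKO islets. Settings were compared for genes that passed or had the smallest p in a comparison, and for Tlr2 and Tlr4. Of these 1410 values, 1249 kept direction and side of the threshold, 133 lost and 28 gained a call, and none reversed. Among the remaining member results, 149 values changed sign, over 66 results. The main value was within 1 standard error of 0 for 144 of these and at most 0.46 in size. With only the arrays compared, all-gene counts were 488 at 7 months, 120 at 5 weeks and 347 within DKO islets (887, 187 and 1424 with all arrays), and members passing were 1 (Xaf1) at 5 weeks and 2 within DKO islets. With a trended robust prior 282 genes and 1 member (Irf7) passed at 5 weeks and 46 genes (17 otherwise) in the interaction. Without dim genes 1 member (Irf7) passed at 5 weeks and 35 genes in the interaction. With all probe sets tested 2 members passed within DKO islets, 0 within WT islets, and 0 probe sets in the interaction. With the position number as a block 1 member (Ifitm2) passed within WT islets. With the replicate block, 2 members passed within DKO islets and 0 within WT islets. All-gene counts with it were 121 at 5 weeks, 864 within DKO islets and 10 in the interaction. Deviations from group means correlated by -0.163 to 0.158 between same-numbered arrays and by -0.148 to 0.191 between the others. These correlations cannot show whether the numbers paired the mice. Irf7, Irf9 and Parp14 within DKO islets (adjusted p = 0.0514, 0.0643 and 0.124), the 3 members within WT islets, Ptpn6 and Ifnar2 within DKO islets (adjusted p = 0.133 and 0.143) and Cmpk2 at 5 weeks (-0.78, adjusted p = 0.0624) lost their calls with that block, and Rsad2 at 7 months gained one (-0.63, adjusted p = 0.0497). Leaving out each array in turn gave 3 to 7 members and 528 to 1681 genes at 7 months, 0 to 1 and 44 to 236 at 5 weeks, 2 to 7 and 378 to 2051 within DKO islets, 0 to 3 and 221 to 527 within WT islets, and 0 to 3 and 2 to 185 in the interaction. The cause of these shifts was not tested beyond the fewer arrays or changed tests named. Dim members, 10 of 35 below all array medians, and the 2 DKO arrays of 5 weeks limit what could be seen.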

Other observations

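Members that neighbour each other on a chromosome were compared as values. Tap1 and Psmb9 share 275 bases of their promoter windows on opposite strands and differed between DKO and WT islets by -0.07 ± 0.14 and -0.13 ± 0.13 at 7 months and by 0.29 ± 0.17 and 0.03 ± 0.16 at 5 weeks. Ifitm1, which lies between Ifitm2 and Ifitm3, differed by 0.03 ± 0.18 at 7 months, where Ifitm3 differed by 0.64 and Ifitm2 by 0.15. The second probe sets of Ifitm1 and Irf1 had group means below the medians of all arrays and are not compared. Eif2ak2, the kinase that stops translation on double-stranded RNA, was bright in all groups and differed by -0.02 ± 0.10 at 7 months and 0.09 ± 0.13 at 5 weeks.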
